A study of Mus musculus with 2 samples.

Results

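The receptors *Ntrk2*, *Ntrk3* and *Ngfr*, the coreceptor *Sort1* and the ligands *Bdnf* and *Ntf3* were followed through the cells that *Krox20-Cre* had traced in the nerve roots and ganglia of mouse embryos. These 6 genes were taken by their symbols from the 33207 genes counted, without regard to their values. The traced cells came from embryos of the genotype labelled Egr2,R26mT, in which Cre made from the *Egr2* (*Krox20*) locus switches on a Tomato reporter in the *R26* locus. Meninges were dissected together with dorsal root ganglia (DRG) and both nerve roots at E11.5 and E12.5, and Tomato-positive cells were sorted and sequenced on the 10x platform, which counts the 3′ ends of transcripts as unique molecular identifiers (UMIs). Both groups were labelled with this genotype and differed by their labels only in stage, and Tomato marks every cell with past Cre activity, whatever its type. Each stage was 1 library with no replicate. Per the study, each library pooled the traced cells of 1 litter. The number of embryos is not given in the sources used here, and stage, litter and library cannot be told apart. No difference was therefore tested, and all intervals below are exact 95% intervals (Clopper-Pearson for shares of cells, Poisson for levels) that cover counting error only.

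Neurotrophins are secreted growth factors that decide which sensory neurons live, where their axons grow and which subtype they become. *Ntrk2* encodes TrkB, the receptor tyrosine kinase for BDNF, and *Ntrk3* encodes TrkC, the kinase for NT-3, the product of *Ntf3*, which proprioceptive neurons of the DRG need for survival. *Ngfr* encodes p75NTR, a death-domain receptor that binds all neurotrophins and is a long-used mark of neural crest cells and of the Schwann cell lineage. *Sort1* encodes sortilin, which sorts neurotrophins and their receptors within the cell and pairs with p75NTR to bind uncleaved proneurotrophins.

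After the filters of the study's methods, 833 cells remained at E11.5 (median 11601 UMIs per cell) and 3496 at E12.5 (median 6140). Before the filters, 9 barcodes occurred in both libraries. Cells were sorted into classes by genes outside the set of 6. Neurons were cells with *Isl1*, a LIM homeobox factor of neurons that include sensory and motor ones, and without *Sox10*, the factor of neural crest and glia. There were 203 of them in the E11.5 library and 1337 in the E12.5 library. Glia were cells with *Sox10* and without *Isl1*, 413 and 1213 in number. Another 104 and 286 cells held both genes, and 113 and 660 held neither.

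The labels name the tissue meninges and the cell type boundary cap cells. The sensory factor *Pou4f1* was found in 94.1% of the E11.5 neurons and in 91.4% of the E12.5 neurons, and *Tlx3* in 87.7% and 86.7%. Other sensory markers were in fewer neurons: *Prdm12* in 29.1% and 29.3%, and *Avil* in 8.87% and 11.7%, below its shares in glia of 13.1% at both stages. Of the 6 motor neuron markers, *Mnx1* had no UMI in neurons of either stage, *Chat*, *Slc18a3*, *Slc5a7* and *Lhx3* were each in at most 4 neurons, and *Isl2*, which sensory neurons also express, was in 16.3% and 22.9%. No list of autonomic neuron markers was read, and the study reports pro-autonomic markers in some of its traced cells. Of the glia at E11.5, 24.9% held *Egr2* and 28.1% held *Prss56*, the boundary cap genes, while the glial gene *Fabp7* was in 99.3% of the glia and in 48.3% of the neurons. Cells without *Isl1* and *Sox10* were named by marker lists. At E12.5 they held 325 cells with glial markers, 156 mesenchymal-like cells, 64 with neuronal markers, 33 pericyte-like cells and 31 myeloid-like cells. At E11.5 they held 50 pericyte-like cells, 43 cells with glial markers and 6 mesenchymal-like cells. In the mesenchymal-like cells of E12.5 the collagen genes *Col1a1* and *Col3a1* were in 98.7% and 99.4% of cells, and *Pou4f1* was in 1.92%. *Egr2* itself had no UMI there, so the label boundary cap cells fitted only some of the sorted cells by their present expression.

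On GRCm39, with GENCODE M39 gene models, *Ngfr* (ENSMUSG00000000120) lies at chr11:95459638-95478561 on the minus strand and has 1 complete coding transcript, of 427 residues. *Ntrk2* (ENSMUSG00000055254) lies at chr13:58954176-59281784 on the plus strand with 30 such transcripts of 284 to 821 residues. *Ntrk3* (ENSMUSG00000059146) lies at chr7:77825707-78387760 on the minus strand with 17, of 482 to 870 residues. Both Trk genes are known for forms with and without the kinase domain, and their outermost 3′ ends lie 255221 bases apart in *Ntrk2* and 269623 bases apart in *Ntrk3*. Counts of 3′ ends summed over a gene therefore merge the full-length and the truncated receptors. *Sort1* lies at chr3:108191285-108268842 (plus strand), *Bdnf* at chr2:109505045-109557475 (plus strand) and *Ntf3* at chr6:126078375-126143873 (minus strand).

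The 250 bases upstream of *Ngfr* and *Ntrk2*, the receptors whose levels in mesenchymal-like cells stood farthest above those of neurons, are shown to let a reader compare their starts. They come from RefSeq on the GRCm38.p6 build, whose coordinates are not those of the gene models above. Capitals mark the GC box, GGGCGG or its complement CCGCCC, searched on both strands. *Ngfr* spans chr11:95587699-95587948 (minus strand) and *Ntrk2* chr13:58806319-58806568 (plus strand). *Ntrk3* and *Sort1* had no entry.
Ngfr: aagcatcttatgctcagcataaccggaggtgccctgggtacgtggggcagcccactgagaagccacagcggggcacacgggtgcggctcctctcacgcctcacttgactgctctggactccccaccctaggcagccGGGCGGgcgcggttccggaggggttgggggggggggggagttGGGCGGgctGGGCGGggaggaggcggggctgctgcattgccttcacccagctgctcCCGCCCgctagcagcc
Ntrk2: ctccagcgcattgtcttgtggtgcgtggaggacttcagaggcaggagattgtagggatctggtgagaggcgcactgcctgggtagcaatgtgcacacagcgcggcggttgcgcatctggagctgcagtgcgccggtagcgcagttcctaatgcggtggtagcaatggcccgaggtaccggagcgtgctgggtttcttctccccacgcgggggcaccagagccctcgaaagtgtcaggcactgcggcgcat

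The *Ngfr* stretch held 4 GC boxes and 70.4% G and C, a content at or above that of 91.7% of the 32851 promoters of the table. The *Ntrk2* stretch held 0 boxes and 62.8% G and C, at or above 79.2% of promoters. The median promoter had 52.4% G and C, and 32.7% of promoters held at least 1 box of these letters. A match is a description of the letters and not of a bound factor, and 0 matches say only that these letters are not in the window.

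The receptors and ligands were sparse. Over all kept cells of E11.5 and of E12.5, *Ngfr* had 372 and 1073 UMIs, *Sort1* had 299 and 690, *Ntrk3* had 182 and 407, and *Ntrk2* had 14 and 129. The ligands had fewer: *Bdnf* had 11 and 34, and *Ntf3* 2 and 25. Most UMIs of *Ntrk3* lay in neurons, 85.7% at E11.5 and 58.5% at E12.5, while most or the largest part of those of *Ngfr* lay in glia, 62.1% and 42.2%. *Ntrk2* differed from both, as 74.4% of its UMIs at E12.5 lay in cells with neither *Isl1* nor *Sox10*. Levels are given in CPM, for which a gene's UMIs were added up within a class and scaled to 1000000 UMIs of that class, and are not compared between genes. Free RNA in the droplets was gauged in the 31 myeloid-like cells (median 8772 UMIs), where *Ntrk2*, *Ntrk3* and *Ngfr* were each in 0 of 31 cells, a count that allows shares up to 9.68%, and *Sort1* was in 2 cells (6.45%).

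**Figure D1:**
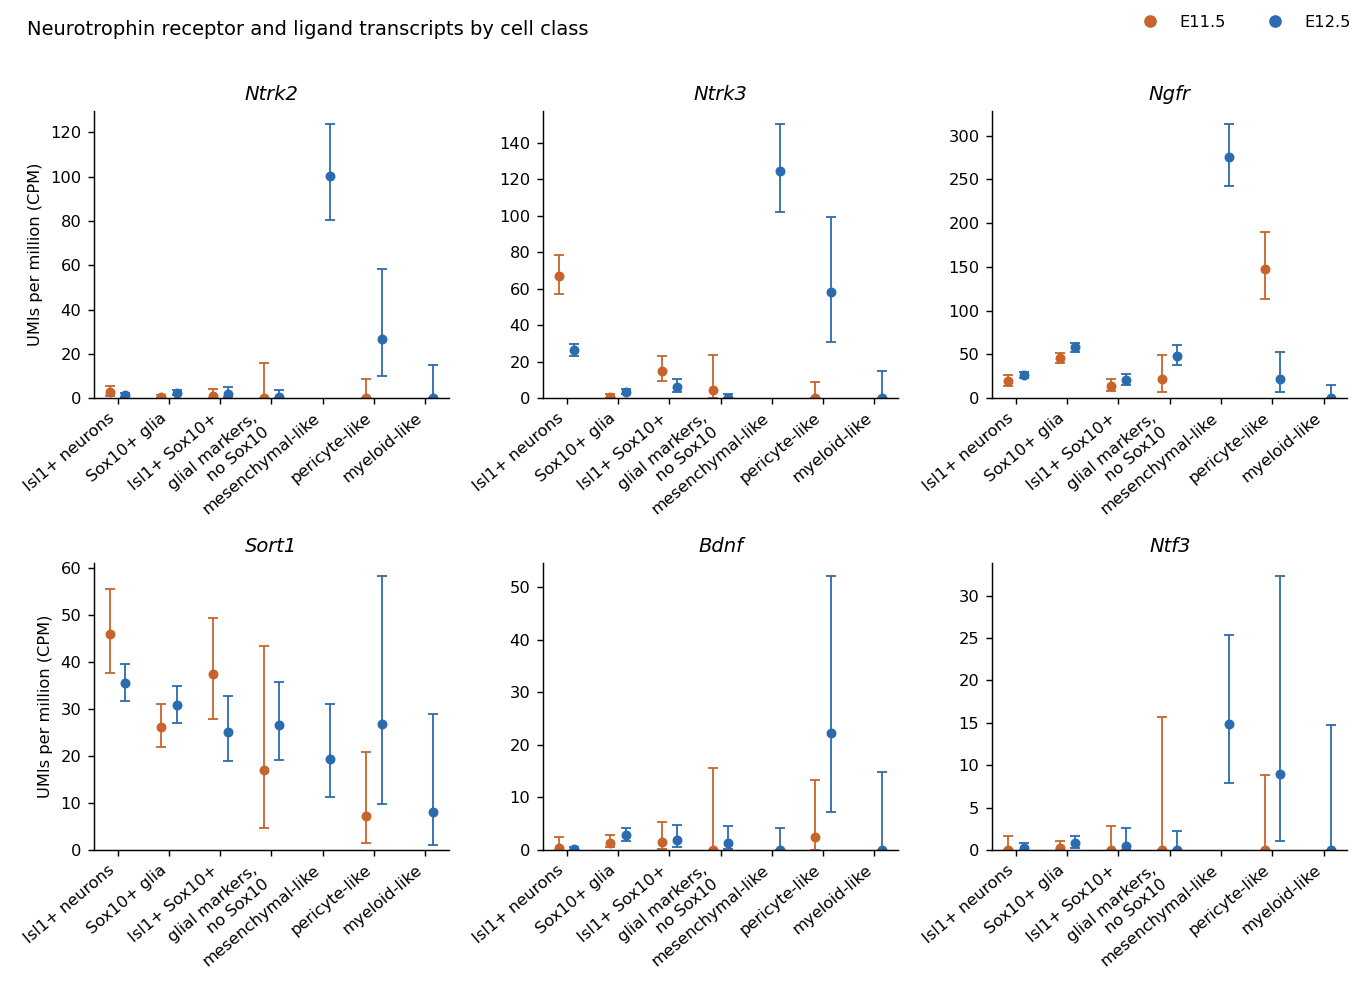
Level of the 6 genes in each class of cells, in CPM (y axis) at E11.5 (orange) and E12.5 (blue), with 95% Poisson intervals that cover counting error only. *Ntrk3* was high in neurons at E11.5 (67.0 CPM) and low in glia (0.790 CPM), while *Ngfr*, *Ntrk2* and *Ntrk3* all stood high in the mesenchymal-like cells of E12.5, at 276, 100 and 124 CPM.

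*Ntrk3*, the NT-3 receptor, was a gene of neurons within the neural lineage. At E11.5 neurons held 156 *Ntrk3* UMIs, or 67.0 CPM (56.9 to 78.4), in 44 of 203 cells (21.7%, 16.2 to 28.0). Glia held 4 UMIs, or 0.790 CPM (0.215 to 2.02), in 0.969% of cells. The neuronal level was 84.8 times the glial level (32.5 to 315). At E12.5 neurons held 238 UMIs, or 26.3 CPM (23.1 to 29.9), in 123 of 1337 cells (9.20%, 7.70 to 10.9), and glia held 28 UMIs, or 3.58 CPM (2.38 to 5.17), in 1.57%. The ratio was 7.35 (4.96 to 11.3), and the median gene stood at 0.917 and 0.919 at the 2 stages. Cells with both *Isl1* and *Sox10* lay between, at 15.0 CPM (20 UMIs in 7 cells) and 6.04 CPM (13 UMIs in 12 cells).

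The glial *Ntrk3* of E12.5 was concentrated in few cells. The 101 glia in which at least 3 of 8 mesenchymal markers were found held 14 of the 28 *Ntrk3* UMIs, and without cells of such markers, an alternative chosen after the data were seen, the ratio of neurons to glia was 12.4. Requiring 2 *Sox10* UMIs of a glial cell gave 12.1. The mean over cells, which weights deep and shallow cells alike, gave 4.77. In every setting tried *Ntrk3* was higher in neurons at both stages.

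*Ntrk3* was spread unevenly among the neurons that held it, as the plot of UMIs per neuron shows. At E11.5, 20 of the 44 neurons held 1 UMI, 16 held 2 to 4, and 8 held 5 or more, with 23 UMIs in the highest. These 8 neurons held 59.6% of all neuronal *Ntrk3* UMIs. At E12.5, 94 of the 123 held 1 UMI, 24 held 2 to 4 and 5 held 5 or more, with 30, 21, 18, 10 and 6 UMIs, 35.7% of the total. Without the neurons of 5 or more UMIs the level was 28.7 CPM at E11.5 and 17.1 CPM at E12.5. For *Ngfr*, 1 neuron of E11.5 held 5 or more UMIs, 13 in all and 28.9% of the neuronal total, and 6 neurons of E12.5 did, with up to 11 UMIs and 16.9% of the total.

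**Figure D2:**
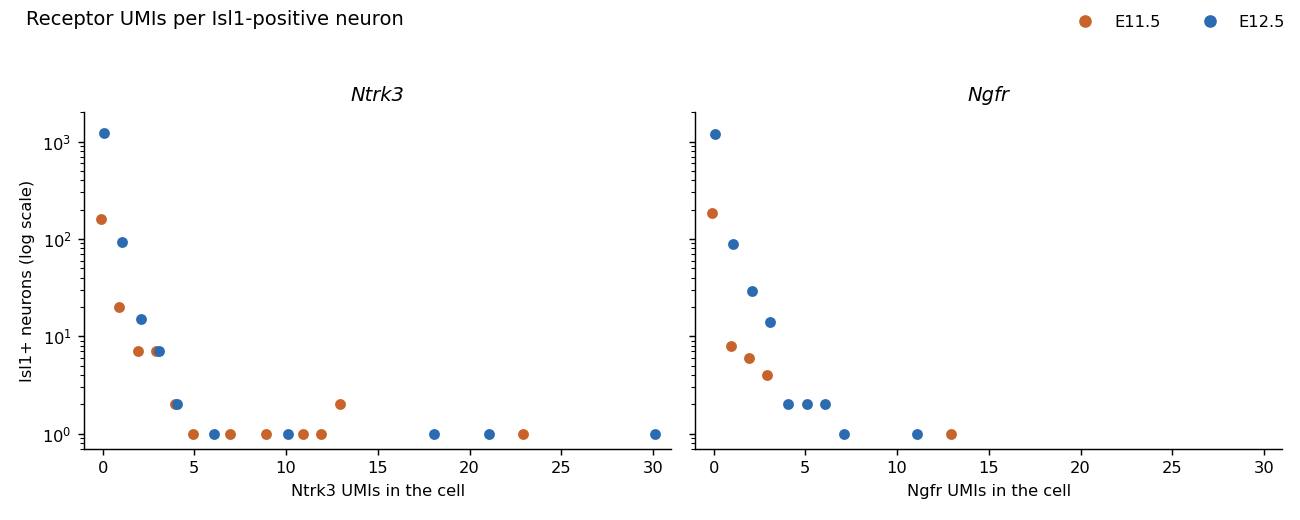
Number of *Isl1*-positive neurons (y axis, log scale) by the UMIs of *Ntrk3* or *Ngfr* in the neuron (x axis) at each stage. Most neurons had 0 UMIs, and *Ntrk3* had a tail of 8 neurons at E11.5 and 5 at E12.5 with 5 or more UMIs, up to 23 and 30.

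The neurons with the most *Ntrk3* held several sensory markers at E11.5, while at E12.5 not all of them held *Pou4f1* or *Tlx3*. All 8 such neurons of E11.5 (median 17871.5 UMIs) held *Pou4f1*, *Tlx3* and *Meis2*, a homeobox gene of touch-sensing neurons, 7 held *Isl2* and 7 held *Shox2*, a factor of touch-neuron subtypes. The sensory markers *Prdm12* and *Avil* were in 1 and 2 of the 8. *Ngfr* was in 4 of them, *Sort1* in 5 and *Ntrk2* in 2, and *Neurog1*, the proneural factor of newborn sensory neurons, was in 2. Among the 36 neurons with 1 to 4 *Ntrk3* UMIs (median 13535 UMIs), *Shox2* was in 32, *Meis2* in 19, *Isl2* in 18 and *Neurog1* in 22. *Shox2* was also in 68 of the 151 E11.5 neurons with neither *Ntrk3* nor *Ngfr*, so it was not particular to the highest neurons. The 5 highest neurons of E12.5 (median 15878 UMIs) held *Pou4f1* in 3 cells, *Tlx3* in 4, *Meis2* in 4, *Cux2* in 4, and *Runx3*, a factor of proprioceptive neurons, in 3. Among all neurons of E12.5, 91.4% held *Pou4f1*. *Runx3* was in 1 of the 118 E12.5 neurons with 1 to 4 *Ntrk3* UMIs (median 6990.5). At E11.5 *Runx3* was in 1 of the 8 highest neurons and in 1 of the 36. These neurons were chosen by their *Ntrk3* and were among the deepest, so the counts are a description. The 15 E12.5 neurons with at least 3 mesenchymal markers held 17 of the 238 neuronal *Ntrk3* UMIs. Without them 117 neurons held *Ntrk3*, against 123 with them. Whether those droplets held RNA of other cells was not tested.

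*Ngfr*, the gene of p75NTR, was higher in glia than in neurons at both stages. Glia held 231 UMIs at E11.5, or 45.6 CPM (39.9 to 51.9), in 102 of 413 cells (24.7%), and 453 UMIs at E12.5, or 57.9 CPM (52.7 to 63.4), in 261 of 1213 cells (21.5%). Neurons held 45 UMIs at E11.5, or 19.3 CPM (14.1 to 25.9), in 19 cells (9.36%, 5.73 to 14.2), and 236 UMIs at E12.5, or 26.1 CPM (22.9 to 29.6), in 139 cells (10.4%, 8.81 to 12.2). The neuronal level was 0.423 times the glial level at E11.5 (0.301 to 0.585) and 0.451 times at E12.5 (0.383 to 0.529). The lowest *Ngfr* shares of a neural class were in neurons with *Neurog1*, 4.32% and 4.58%. Of the 6 genes, 3 had 50 or more UMIs in neurons and glia together at E11.5, and of these *Ntrk3* was at least 2-fold higher and *Ngfr* at least 2-fold lower in neurons. Among all 9620 genes of that comparison 9.44% were 2-fold or more higher and 15.9% lower, and at E12.5, where the same pair passed these limits, 12.3% were higher and 19.8% lower.

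*Ngfr* was also spread unevenly among glia, but less so than *Ntrk3* among neurons. For *Ntrk3*, neurons with 5 or more UMIs held 59.6% of the neuronal total at E11.5 and 35.7% at E12.5. At E11.5, 16 glia held 5 to 8 *Ngfr* UMIs and together 39.8% of the glial total, and at E12.5 11 glia did, with 13.7%. The 101 glia of E12.5 with at least 3 mesenchymal markers held 100 of the 453 glial *Ngfr* UMIs. At E11.5, 7 such glia held 5 of 231. Whether those droplets held RNA of other cells was not tested. Cells with glial markers but without *Sox10* held 21.3 CPM at E11.5 (5 UMIs) and 48.2 CPM at E12.5 (78 UMIs). At E12.5 the interval of the latter, 38.1 to 60.2 CPM, overlapped that of the *Sox10*-positive glia.

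*Sort1* was found in both neurons and glia at both stages. Neurons held 107 UMIs at E11.5, or 45.9 CPM (37.7 to 55.5), in 79 cells (38.9%), and 321 at E12.5, or 35.5 CPM (31.7 to 39.6), in 263 cells (19.7%). Glia held 133 UMIs, or 26.3 CPM (22.0 to 31.1), in 25.7% of cells, and 241 UMIs, or 30.8 CPM (27 to 34.9), in 16.9%. The ratio of neurons to glia was 1.75 (1.34 to 2.27) at E11.5. At E12.5 it was 1.15 (0.972 to 1.37), an interval that includes equal levels, and the mean over cells turned the direction to 0.963. The highest *Sort1* count of a neuron was 5 UMIs in the E11.5 library and 4 in the E12.5 library.

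*Ntrk2*, the BDNF receptor, was rare in neurons and glia. Neurons held 6 UMIs in 6 cells at E11.5 (2.96%) and 12 UMIs in 7 cells at E12.5 (0.524%), and glia held 2 UMIs in 2 cells and 17 UMIs in 13 cells. At E12.5 the neuronal share lay below the glial one of 1.07%, and no expression in neurons was read from it. At E11.5 there were no myeloid-like cells to gauge free RNA, and 2.96% rests on 1 UMI in each of the 6 cells. The 15 E12.5 neurons in which at least 3 mesenchymal markers were found held 8 of the 12 neuronal *Ntrk2* UMIs, and the 101 glia with such markers held 9 of the 17 glial ones. Whether those droplets held RNA of other cells was not tested.

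The mesenchymal-like cells of E12.5 held all 3 receptors. *Ntrk2* had 88 UMIs there, or 100 CPM (80.5 to 124), in 48 of 156 cells (30.8%). *Ntrk3* had 109 UMIs, or 124 CPM (102 to 150), in 63 cells (40.4%). *Ngfr* had 242 UMIs, or 276 CPM (242 to 313), in 104 cells (66.7%). Against neurons of the same library *Ntrk2* was 75.7 times as high (41.2 to 152), *Ngfr* 10.6 times (8.81 to 12.7) and *Ntrk3* 4.73 times (3.73 to 5.95), while *Sort1* was 0.547 times as high (0.314 to 0.889). So 3 of 4 genes with 50 or more UMIs were 2-fold or more higher, where 17.5% of all genes were and the median gene stood at 1.02. Against glia the ratios were 46.2 (27.3 to 82.9) for *Ntrk2*, 34.8 (22.8 to 54.7) for *Ntrk3*, 4.77 (4.06 to 5.59) for *Ngfr* and 0.630 (0.361 to 1.03) for *Sort1*, with 10.3% of genes 2-fold or more higher and a median of 0.980.

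The class rests on 8 mesenchymal markers, whose summed level was 6141 CPM in it, 498 CPM in glia and 82.7 CPM in neurons of E12.5. *Col1a2* was in 94.2% of its cells, *Lum* in 93.6%, *Dcn* in 81.4% and *Pdgfra* in 45.5%. *Prrx1* was in 35.9% and *Twist1* in 13.5%. Of the pericyte genes, *Vtn* was in 37.8%, *Pdgfrb* in 35.3%, *Rgs5* in 26.3% and *Notch3* in 19.9%. *Cspg4* and *Abcc9* were each in 5.13%, *Kcnj8* in 0.641% and *Higd1b* in 0%. *Col1a2* and *Col3a1* were also in 62.2% and 49.4% of the glia. Only 6 such cells were found at E11.5. They held 4 *Ntrk2* UMIs in 4 cells and 10 *Ngfr* UMIs in 5 cells, and *Ntrk3* was in 0 of them.

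The pericyte-like class was named by markers of pericytes, which surround small vessels. Of these, *Rgs5* was in 100% and 97% of its cells, *Vtn* in 96% and 100%, and *Kcnj8* in 92% and 72.7%. *Abcc9* was in 94% and 48.5%, *Pdgfrb* in 78% and 72.7%, and *Cspg4* in 52% and 27.3%. *Notch3* was in 36% and 60.6%, and *Higd1b* in 0% and 3.03%. *Col3a1* was also in 76% and 93.9% of these cells and *Fabp7* in 72% and 57.6%. Pericyte-like cells differed from the mesenchymal-like cells in their receptors. At E11.5 they held 62 *Ngfr* UMIs, or 148 CPM (113 to 190), in 25 of 50 cells, and *Ntrk2* and *Ntrk3* were each in 0 of 50 cells, a count that allows shares up to 6%. At E12.5 *Ngfr* stood at 22.3 CPM (7.25 to 52.1) in 5 of 33 cells. *Ntrk3* had 13 UMIs there, or 58.1 CPM (30.9 to 99.3), in 7 cells, and *Ntrk2* had 6 UMIs in 4 cells. The *Ngfr* intervals of the 2 stages did not overlap, and the shares expected at an equal depth of 2000 UMIs were 23.8% and 5.16%.

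The ligands were too sparse for ratios past the minimum of 50 UMIs. *Bdnf* had 7 UMIs in 7 glia at E11.5, or 1.38 CPM (0.556 to 2.85), and 22 UMIs in 19 glia at E12.5, or 2.81 CPM (1.76 to 4.25). Neurons held 1 *Bdnf* UMI at each stage, so at E12.5 the neuronal level was 0.0393 times the glial level, with an interval of 0.000953 to 0.243 from 1 and 22 UMIs. More of the few *Bdnf* UMIs thus lay in glia than in neurons, on counts under the minimum. Of the 22 glial UMIs of E12.5, 6 lay in the 101 glia with at least 3 mesenchymal markers. Pericyte-like cells held 5 UMIs in 4 of 33 cells at E12.5, and *Bdnf* was in 0 of 156 mesenchymal-like cells, a count that allows shares up to 1.92%.

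*Ntf3*, the gene of NT-3, had most of its few UMIs in the mesenchymal-like cells. At E12.5 it had 13 UMIs in 13 of 156 of them (8.33%), or 14.8 CPM (7.89 to 25.4), against 6 UMIs in 5 of 1213 glia and 2 UMIs in 2 of 1337 neurons. At E11.5 it had 1 UMI in glia and 0 in neurons. *Ntf5*, the gene of another neurotrophin, had 0 UMIs in the neurons of E11.5 and 1 in those of E12.5 and entered no ratio.

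Receptor combinations were read in single neurons from *Ntrk2*, *Ntrk3* and *Ngfr* with at least 1 UMI. At E11.5, 150 of 203 neurons (73.9%) held none of them. *Ntrk3* alone was in 30 neurons (14.8%, 10.2 to 20.4), *Ntrk3* with *Ngfr* in 9 (4.43%), *Ngfr* alone in 8 (3.94%), *Ntrk2* with *Ntrk3* in 3, all 3 receptors in 2 and *Ntrk2* alone in 1. At E12.5, 1096 of 1337 neurons (82.0%) held none, *Ngfr* alone was in 115 (8.60%, 7.15 to 10.2), *Ntrk3* alone in 97 (7.26%, 5.92 to 8.78) and *Ntrk3* with *Ngfr* in 22 (1.65%, 1.03 to 2.48). The remaining 7 neurons held *Ntrk2*, 3 of them with *Ntrk3*, 2 alone, 1 with *Ngfr* and 1 with both. An absent UMI does not show an absent receptor at this depth.

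**Figure D3:**
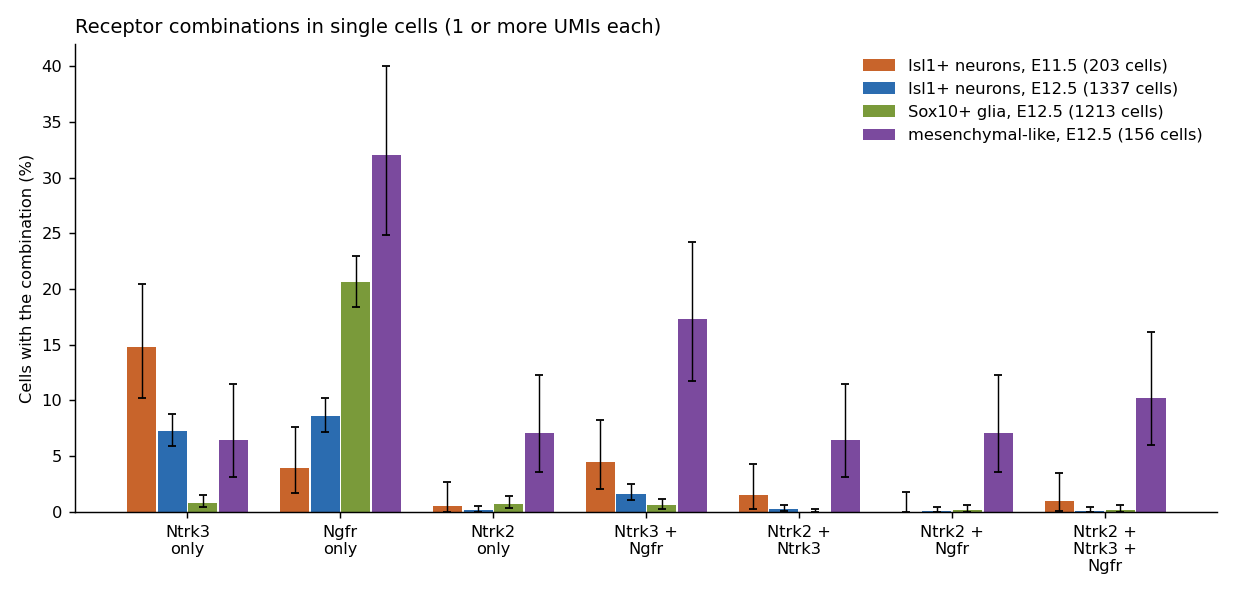
Share of cells (percent, y axis) with each combination of *Ntrk2*, *Ntrk3* and *Ngfr* UMIs in neurons of both stages and in glia and mesenchymal-like cells of E12.5, with 95% exact binomial intervals. *Ntrk3* alone led in neurons at E11.5 (14.8%), *Ngfr* alone in glia (20.6%), and the mesenchymal-like cells held all 3 receptors in 10.3%.

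*Ntrk3* and *Ngfr* met in the same neurons more often than their separate shares give at E11.5, and less clearly so at E12.5. At E11.5, 11 neurons held both (5.42%, 2.74 to 9.49), where the product of the shares gives 4.12 and the product within 5 bins of depth 4.78. At E12.5, 23 held both (1.72%, 1.09 to 2.57), against 12.8 and 15.4, and this interval includes the product within bins. Put the other way, 57.9% of the *Ngfr*-positive neurons of E11.5 (33.5 to 79.7) and 16.5% of those of E12.5 (10.8 to 23.8) also held *Ntrk3*. Of the few *Ntrk2*-positive neurons, 5 of 6 held *Ntrk3* in the E11.5 library and 4 of 7 in the E12.5 library. Without the neurons that held at least 3 mesenchymal markers, which had 8 of the 12 *Ntrk2* UMIs of E12.5, the latter count was 2 of 4, and 21 neurons of E12.5 held *Ntrk3* and *Ngfr*, against a product of 11.51. No test was made of these counts.

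*Sort1* was paired with *Ntrk3* in 23 neurons at E11.5, against 18.6 within bins of depth, and in 41 at E12.5, against 27.4. With *Ngfr*, its partner in binding proneurotrophins, *Sort1* was found in 8 neurons of the earlier and 34 of the later stage, against 7.28 and 35.4 within bins. So *Sort1* and *Ngfr* met in neurons about as often as depth and shares give. In glia the count was 32 against 28.1 at E11.5 and 49 against 43.8 at E12.5.

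Outside neurons the combinations were simpler or fuller. Of the E12.5 glia, 250 of 1213 (20.6%) held *Ngfr* alone, 10 *Ntrk3* alone, 9 *Ntrk2* alone, 7 *Ntrk3* with *Ngfr* and 933 none. Of the E11.5 glia, 101 of 413 held *Ngfr* alone and 306 none. The mesenchymal-like cells of E12.5 held *Ngfr* alone in 50 of 156 cells, *Ntrk3* with *Ngfr* in 27, all 3 receptors in 16 (10.3%) and none in 21. Their pairs came near the products within bins of depth, with 43 cells of *Ntrk3* and *Ngfr* against 42.7, 27 of *Ntrk2* and *Ngfr* against 32.4, and 26 of *Ntrk2* and *Ntrk3* against 20.2.

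Across states of glia and neurons, *Ngfr* was lowest in the cells with *Neurog1*, and *Ntrk3* was found mainly in cells with *Isl1*. The states were set by *Sox10*, *Isl1* and *Neurog1*, and no order in time was measured. Whether droplets with both *Sox10* and *Isl1* held RNA of other cells was not tested. *Ngfr* stood at 53.7 CPM at E11.5 and 62.3 CPM at E12.5 in glia without *Neurog1*, at 10.6 and 12.8 CPM in glia with *Neurog1*, and at 13.5 and 20.9 CPM in cells with *Sox10* and *Isl1*. *Ngfr* stood at 6.67 and 9.65 CPM in neurons with *Neurog1*, and at 50.1 (34.7 to 70.0) and 33.4 (29.1 to 38.3) CPM in neurons without it. Within glia and within neurons alike, the cells with the proneural factor had the lower level.

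**Figure D4:**
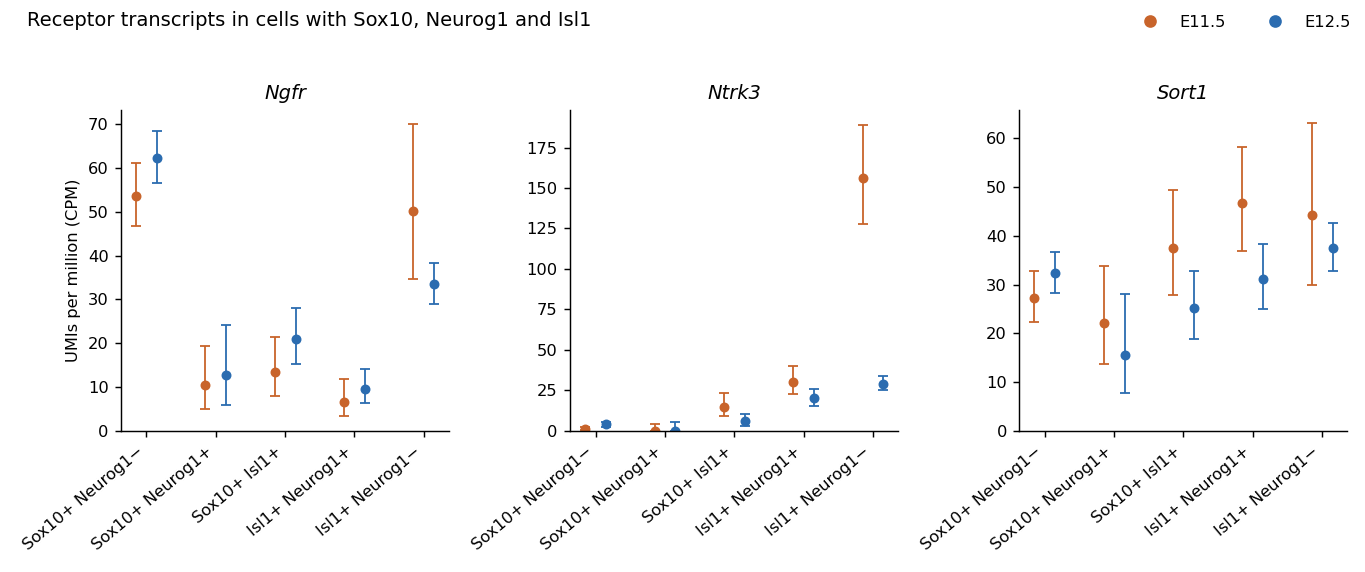
Level (CPM, y axis, with 95% Poisson intervals) of *Ngfr*, *Ntrk3* and *Sort1* in 5 states from glia without *Neurog1* to neurons without *Neurog1*, at E11.5 and E12.5. *Ngfr* dipped to 6.67 and 9.65 CPM in neurons with *Neurog1*, *Ntrk3* had 0 UMIs in glia with *Neurog1*, and *Sort1* moved least, from 22.2 to 46.7 CPM at E11.5 and 15.6 to 37.4 CPM at E12.5.

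The *Ngfr* level of glia with *Neurog1* was 0.197 times that of glia without it at E11.5 (0.0930 to 0.369) and 0.205 times at E12.5 (0.0932 to 0.393). In neurons without *Neurog1* it was 7.52 times that of neurons with it at E11.5 (3.72 to 16.5, from 45 UMIs in all) and 3.47 times at E12.5 (2.32 to 5.39), where 2.41% and 4.74% of all genes were 2-fold or more higher and 2.37% and 2.17% lower. At equal depth the expected *Ngfr* shares were 1.06% of neurons with and 9.54% of neurons without *Neurog1* at E11.5, and 1.25% and 4.72% at E12.5. Requiring 2 *Neurog1* UMIs, a choice made after the data were seen, moved the E12.5 ratio of neurons to 6.54.

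*Ntrk3* was in 0 of the 70 glia with *Neurog1* at E11.5 and in 0 of 87 a day later, counts that allow shares up to 4.29% and 3.45%. It stood at 30.3 CPM in neurons with *Neurog1* and 156 CPM (128 to 189) in those without it at E11.5, a ratio of 5.16 (3.65 to 7.37), which was 1.85 without the 8 neurons of 5 or more *Ntrk3* UMIs. At E12.5 the levels were 20.01 and 29.1 CPM and the ratio 1.46 (1.07 to 2.0). *Sort1* differed little along these states of neurons, with ratios of 0.948 and then 1.20. The neurons without *Neurog1* were 64 of 203 in the earlier library and 922 of 1337 in the later one. These counts were not brought to equal depth, and the E12.5 cells were shallower. How far depth moved neurons between the classes with and without *Neurog1* was not tested.

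Between the stages *Ntrk3* differed in neurons. It stood at 67.0 CPM at E11.5 and 26.3 CPM at E12.5, a ratio of 0.393 (0.319 to 0.484), the only one of the 3 genes past 50 UMIs in neurons with a 2-fold difference, where 1.68% of all genes were 2-fold or more lower and 6.13% higher. Without the neurons of 5 or more *Ntrk3* UMIs the ratio was 0.595. *Ngfr* in neurons had a ratio of 1.35 (0.978 to 1.90), an interval that includes equal levels, and the mean over cells turned it to 0.863. *Sort1* in neurons had 0.772 (0.618 to 0.970). In glia *Ngfr* had 1.27 (1.08 to 1.49) and *Sort1* 1.17 (0.944 to 1.46), both under 2-fold, where 6.36% of genes were 2-fold or more higher. Glia with at least 3 mesenchymal markers held 5 of the 231 glial *Ngfr* UMIs at E11.5 and 100 of the 453 at E12.5. Their part in the stage ratio of *Ngfr* was not tested.

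Since the E11.5 cells were deeper, shares of positive cells between the stages are given as the share expected if each cell were thinned to 2000 UMIs, averaged over all draws, which leaves out 46 shallower neurons and 38 shallower glia of E12.5. *Ntrk3* had expected shares of 7.97% and 3.57% in neurons, where the unthinned shares were 21.7% and 9.20%. *Ngfr* had 3.73% and 3.63% in neurons and 8.30% and 10.1% in glia. *Sort1* had 9.44% and 6.48% in neurons and 5.09% and 6.42% in glia. Neurons with *Ntrk3* and no *Ngfr* had 6.56% and 3.28%, those with *Ngfr* and no *Ntrk3* 2.32% and 3.34%, and those with both 1.41% and 0.287%. The levels and the shares of *Ngfr* in neurons thus gave no common direction between the stages.

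Glia with the boundary cap genes *Egr2* or *Prss56*, 174 at E11.5 and 465 at E12.5, were set against the 239 and 748 glia with neither. *Sort1* stood at 28.0 against 24.7 CPM at E11.5, a ratio of 1.13 (0.794 to 1.62), and at 40.7 against 24.6 CPM at E12.5, a ratio of 1.65 (1.27 to 2.14). *Ngfr* stood at 34.7 against 55.4 CPM at E11.5, a ratio of 0.626 (0.472 to 0.824), and at 62.0 against 55.3 CPM at E12.5, a ratio of 1.12 (0.925 to 1.36). Neither gene reached a 2-fold difference, which 0.779% of genes did upward and 0.638% downward at E11.5, and 1.45% and 1.06% at E12.5.

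Neurons with *Ntrk3* or with *Ngfr* were compared with neurons without the same receptor across the genes of sensory subtypes, of neurogenesis and of the neurotrophin pathway. Both comparisons draw on the same neurons, which hold some cells with both receptors, and the positive cells were deeper (median 13923 against 10970 UMIs for *Ntrk3* and 12486 against 11516.5 for *Ngfr* at E11.5, and 7181 against 6405.5 and 8630 against 6303.5 at E12.5). Values are therefore given side by side as ratios of CPM. Ratios without the neurons of 5 or more *Ntrk3* UMIs, and those of neurons with *Ngfr* and no *Ntrk3*, were chosen after the data were seen.

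At E11.5 the neurons with *Ntrk3* held more *Isl2* (14.6 times, 8.58 to 26.2), *Meis2* (8.38 times, 5.74 to 12.5) and *Pcsk2* (6.08 times, 3.95 to 9.51), a convertase of neuropeptide precursors, and less *Neurog1* (0.299 times), the neurogenesis gene *Eya2* (0.439 times) and *Prdm12* (0.476 times), a factor of nociceptor precursors. Among all genes 5.43% were 2-fold or more higher and 6.34% lower. The neurons with *Ngfr* held more *Ntrk3* (7.51 times, 5.39 to 10.4), *Isl2* (6.47 times), *Meis2* (5.89 times), *Kidins220* (3.27 times), a scaffold that binds Trk receptors and p75NTR, and *Gab1* (2.82 times), a docking protein. They held less *Neurog1* (0.181 times), *Eya2* (0.242 times) and *Neurod4* (0.308 times), where 6.74% of genes were higher and 8.25% lower. Of the 19 neurons with *Ngfr*, 11 also held *Ntrk3*, and those 11 carried 36 *Isl2* and 53 *Meis2* UMIs, against 5 and 3 in the 8 without *Ntrk3*. Those 8 stood at 8.72 times the level of neurons with neither receptor for *Isl2* (2.41 to 26.6) and 1.79 times for *Meis2* (0.353 to 5.69). All 5 *Isl2* UMIs lay in 1 of the 8 cells and the 3 *Meis2* UMIs in 2. These intervals do not cover the spread between cells, and no difference in *Isl2* is read from 1 cell. Without the 8 neurons of 5 or more *Ntrk3* UMIs, the ratios by *Ngfr* were 3.76 for *Ntrk3* (1.92 to 6.92) and 3.29 for *Meis2* (1.85 to 5.57). The 36 neurons with 1 to 4 *Ntrk3* UMIs had ratios of 10.96 for *Isl2* (6.20 to 20.3), 5.20 for *Meis2* (3.36 to 8.13) and 0.364 for *Neurog1* (0.268 to 0.486).

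At E12.5 neurons with *Ntrk3* had ratios of 3.13 for *Meis2*, 2.94 for *Sorcs1*, a relative of sortilin, 2.67 for *Cux2*, 2.18 for *Gfra3* and 0.474 for *Neurog1*, with 2.06% of genes 2-fold or more higher and 4.06% lower. These rested in part on the 5 neurons with the most *Ntrk3*. Against the same neurons without *Ntrk3*, the 118 neurons with 1 to 4 *Ntrk3* UMIs had ratios of 2.07 for *Meis2* (1.30 to 3.18), 1.81 for *Sorcs1* (1.19 to 2.67), 1.003 for *Cux2* (0.465 to 1.93), 0.457 for *Gfra3* (0.145 to 1.10, from 5 UMIs) and 0.503 for *Neurog1* (0.349 to 0.704). Those 5 neurons held 19 *Cux2* and 21 *Gfra3* UMIs, against 10 and 5 in the 118. Neurons with *Ngfr* held more *Gfra3* (9.48 times, 6.55 to 13.8), the artemin coreceptor, *Th* (8.50 times, 6.20 to 11.7), the gene of tyrosine hydroxylase, *Meis2* (5.64 times), *Etv5* (4.84 times), *Cux2* (4.33 times), *Ntrk3* (4.09 times, 3.12 to 5.34) and *Isl2* (3.96 times). Without the 5 neurons of the most *Ntrk3*, the *Ntrk3* ratio was 1.32 (0.829 to 2.02), while *Gfra3* stood at 7.21 times and *Th* at 8.07 times. Neurons with *Ngfr* held less *Neurog1* (0.238 times), *Eya2* (0.371 times), *Neurod4* (0.375 times) and *Insm1* (0.434 times), with 6.33% of genes higher and 5.11% lower. *Ngfr* itself was 1.94 times as high in neurons with *Ntrk3* (1.36 to 2.70) and *Sort1* 1.63 times (1.19 to 2.21), and with 1 to 4 *Ntrk3* UMIs 1.68 and 1.58 times.

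**Figure D5:**
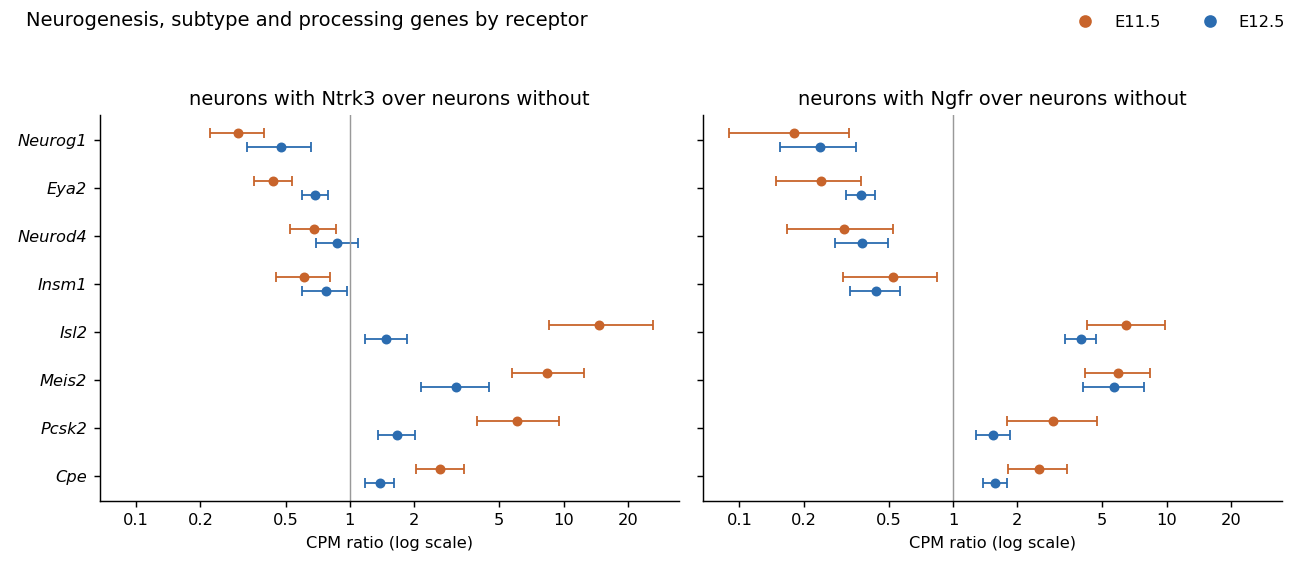
Ratio of levels (CPM, x axis, log scale, with 95% intervals) of 8 genes in neurons with against without *Ntrk3* and with against without *Ngfr*, at both stages. *Neurog1* lay below 1 in all 4 comparisons, from 0.181 to 0.474, while *Isl2* and *Meis2* lay above 1, up to 14.6 and 8.38 in the *Ntrk3* comparison of E11.5.

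Cell counts show the same genes in the combinations of E12.5. *Gfra3* was in 27 of the 116 neurons with *Ngfr* and no *Ntrk3*, in 5 of the 23 with both, in 1 of the 100 with *Ntrk3* and no *Ngfr* and in 34 of the 1098 with neither. *Th* was in 33, 9, 3 and 39 of these neurons, and *Isl2* in 75, 14, 28 and 189. *Shox2* was in 74 of the 100 neurons with *Ntrk3* alone of the pair, against 75 of 116 with *Ngfr* alone. The neurons with *Ngfr* and no *Ntrk3* were deeper than those with *Ntrk3* and no *Ngfr* (median 8486.5 against 6833.5 UMIs). In CPM, the former stood at 7.38 times the level of neurons with neither for *Gfra3* (4.90 to 11.1) and 7.59 times for *Th* (5.36 to 10.8). *Neurog1* was in 372 of the 1098 neurons with neither, in 24 of the 100 with *Ntrk3*, in 17 of the 116 with *Ngfr* and in 2 of the 23 with both.

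At E11.5 the 8 neurons with *Ngfr* and no *Ntrk3* (median 9303 UMIs) held fewer sensory markers, with *Pou4f1* in 4, *Tlx3* in 3 and *Isl2* in 1 of them. Among all E11.5 neurons with at least 3 pericyte markers, 3 in number, 4 *Ngfr* UMIs were found, and those with at least 3 mesenchymal markers, 1 in number, held 2. At E12.5 the 3 neurons with pericyte markers held 12 *Ngfr* UMIs and the 15 with mesenchymal markers held 19, of 236 in all. The part of these cells in the neuronal *Ngfr* was not tested.

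Glia with *Ngfr* were compared in the same way. They held more *Gfra3* (8.71 times at E11.5, 6.14 to 12.6, and 3.45 times at E12.5, 2.96 to 4.02) and more *Sorcs1* (6.18 times, 5.01 to 7.66, and 2.63 times, 2.30 to 3.0). They held less *Neurog1* (0.212 and 0.304 times), *Pou4f1* (0.348 and 0.279 times) and *Prdm12* (0.474 and 0.423 times). At E11.5 the boundary cap genes *Prss56* (0.442 times) and *Hey2* (0.447 times) were also lower. Among all genes 2.03% were 2-fold or more higher and 2.05% lower at E11.5, and 1.54% and 1.65% at E12.5. The glia with *Ngfr* were deeper (median 13596 against 12439 UMIs at E11.5, 6485 against 5955.5 at E12.5) and had less of these neurogenic genes in CPM.

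Neurons with *Sort1* differed in few genes from those without it, as 0.593% and 0.431% of all genes were 2-fold or more higher at E11.5 and E12.5, and 1.03% and 1.17% lower. *Ntrk3* was among the higher ones, at 2.23 times (1.60 to 3.14) and 2.49 times (1.90 to 3.24). Without the neurons of 5 or more *Ntrk3* UMIs it was 1.82 times (1.08 to 3.11) and 1.79 times (1.26 to 2.53), under 2-fold at both stages.

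The genes whose pattern over neurons was most like that of each receptor were taken by Pearson's correlation of log-scaled counts over the 1337 neurons of E12.5, which share 1 library and differ in depth. For *Ngfr* they were *Sncg* (r = 0.373), *Nav3* (0.359), *Stmn3* (0.344), *Epb41l3* (0.343) and *Nefl* (0.343), with 0.503, 0.564, 0.389, 0.496 and 0.320 over the 203 neurons of E11.5. For *Ntrk3* they were *Sv2c* (0.173), *Epha7* (0.160), *Epha5* (0.157), *Meis2* (0.150) and *L1cam* (0.149), with 0.378, 0.215, 0.666, 0.654 and 0.314 at E11.5. Those of *Ntrk2* rested on 7 positive cells at E12.5, and their largest value at E11.5 was 0.0658, so no gene is named as like it. The genes most like *Ngfr* included *Nefl*, a neurofilament gene, and *Stmn3*, a stathmin gene, both marks of neurons that extend axons.

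The rest of the pathway was followed through 4 lists, given as neurons over glia. Among all genes, 9.44% were 2-fold or more higher in neurons and 15.9% lower at E11.5, and 12.3% and 19.8% at E12.5. Of the 18 genes of Trk adaptors, 15 had 50 or more UMIs at E11.5, with 2 higher, 3 lower and a median ratio of 1.01, and 16 did at E12.5, with 3 higher, 3 lower and a median of 1.03. *Shc1* (2.02 and 2.06 times) and *Sh2b2* (2.56 and 2.01 times) were higher in neurons at both stages, and *Shc2*, a relative found in neurons, was 11.4 times as high at E12.5. *Gab1* (0.329 and 0.306 times), *Pik3r1* (0.448 and 0.456 times) and *Shc4* (0.192 and 0.180 times) were lower. The median of this list stayed near the all-gene medians of 0.917 and 0.919.

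Of the 11 partners and adaptors of p75NTR, 9 passed the minimum at each stage. None was 2-fold higher in neurons, and *Irak1* (0.407 times, E11.5) and *Tnfrsf19* (0.0898 and 0.0551 times), a relative of the receptor, were lower, with medians of 0.999 and 0.811. Of the 4 sortilin relatives 2 passed, and *Sorcs2*, a proneurotrophin coreceptor, stood at 0.127 and 0.0712 times, with *Sorcs1* at 0.199 times at E12.5. Of the 9 genes of proneurotrophin processing 6 passed, with medians of 1.53 and 1.10. The convertase gene *Pcsk2* (36.6 and 40.1 times) and *Cpe* (23.4 and 16.8 times), which sorts BDNF precursors in secretory granules, were the highest in neurons, and *Plat*, the gene of tissue plasminogen activator, was lower (0.238 and 0.215 times).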

How the data were processed

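The deposited files hold raw UMI counts per gene and cell for 2 libraries, 1 per stage. Per the submitters' processing notes, the authors made them with Cell Ranger 7.0 (7.0.1 in the file header) on mm39. The study's filters were applied: a minimum of 2000 UMIs (1000 for the E12.5 library), at most 10% mitochondrial UMIs and a Scrublet doublet score under 0.2. They kept 833 of the 1431 barcodes of the earlier stage and 3496 of the 3762 of the later.

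Levels (CPM) are a gene's UMIs added up within a class and scaled to 1000000 UMIs of that class. Ratios of levels have exact conditional intervals, and a ratio of 2 or more either way was counted among genes with at least 50 summed UMIs. A cell was positive with 1 UMI. Cells with neither *Isl1* nor *Sox10* were named from at least 3 markers of a list. For 0 positive cells the upper limit is 3 cells of the total. Named genes were the 6 genes, those that set the classes, the pathway and subtype genes past 2-fold, those that small counts call for, and the 5 most correlated with each receptor. The genes and lists were chosen with earlier results of these data known. Scripts were tested on simulated data and used numpy 2.4.6, scipy 1.17.1, pandas 2.3.3, scanpy 1.11.5 and matplotlib 3.10.9. A traced library from *Prss56-Cre* embryos was not analysed here. Some genes of the lists are not reported here.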

Additional observations from a re-analysis of the deposited data

Results flagged for a closer look

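The direction of a ratio was compared between the stages for 13 ratios of *Ntrk2*, *Ntrk3*, *Ngfr* and *Sort1* between classes of cells. In 4 of them the ratio lay above 1 at one stage and below 1 at the other. With 1 library per stage these differences were not tested.

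*Ntrk2* in neurons was 6.52 times the glial level at E11.5, from 6 and 2 UMIs, and 0.611 times at E12.5, from 12 and 17 UMIs. *Sort1* in neurons without *Neurog1* was 0.948 times the level of neurons with it at E11.5 and 1.20 times at E12.5.

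In glia with *Egr2* or *Prss56*, *Ntrk3* was 1.12 times the level of the other glia at E11.5, where all glia held 4 UMIs, and 0.439 times at E12.5, where they held 28. *Ngfr* in the same glia was 0.626 times at E11.5 and 1.12 times at E12.5. Of the 4 pairs of values, those of *Ngfr* are the ones that rest on 231 and 453 glial UMIs, and their intervals, 0.472 to 0.824 and 0.925 to 1.36, do not overlap.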

How the results depend on the processing

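The 28 values at the base of the comparisons were recomputed under 17 alternatives, 5 of them chosen after seeing the data, which gave 241 values. None turned a ratio whose interval excluded 1, 192 stayed within the interval of the reported value and 49 moved by more. Some of the 192 could not move, such as E11.5 values under a minimum of 2000 UMIs, which that library already had. Ratios within glia also could not move under settings that change only the neurons. No value moved with 2000 UMIs at both stages, a mitochondrial limit of 5%, no doublet filter, at least 3 pan-neuronal markers in neurons, totals without mitochondrial, ribosomal and globin genes, or at least 4 markers in mesenchymal-like cells. The cause of the moves was not tested unless the setting itself removes cells or UMIs. No paired analysis was possible because each stage has 1 library and no test was made. Stage cannot be told apart from library, and shares of positive cells are limited by depth.

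Percentages below are of neurons, E11.5 before E12.5. With 2 *Isl1* UMIs, *Ngfr* without *Ntrk3* was 1.64% at E11.5. With 2 *Sox10* UMIs the *Ntrk3* ratio of neurons to glia at E12.5 was 12.1. As means over cells the E12.5 ratios of neurons to glia were 4.77 for *Ntrk3*, 0.356 for *Ngfr* and 0.963 for *Sort1*, and the stage ratio of *Ngfr* in neurons was 0.863. With 2 UMIs of a receptor, *Ntrk3* without *Ngfr* was 8.87% and 1.94%, *Ntrk2* 0% and 0.150%, and at E12.5 *Ngfr* without *Ntrk3* was 3.59% and both 0.224%. In 1 draw of 2000 UMIs, *Ntrk3* without *Ngfr* was 9.36% and 3.56%, *Ngfr* without *Ntrk3* 0.493% and 3.49%, both 1.97% and 0.465%, and *Ntrk2* 0% and 0.0775%. In 1 draw of 4000 UMIs, *Ntrk3* without *Ngfr* was 9.57% and 5.80%, both 1.60% and 0.757%, *Ngfr* without *Ntrk3* 6.22% at E12.5, and *Ntrk2* 0.532% at E11.5. Another draw of 2000 UMIs gave 3.94% and 2.63% for *Ntrk3* without *Ngfr*, 1.97% and 0.310% for both, 3.02% for *Ngfr* without *Ntrk3* at E12.5 and 0% for *Ntrk2* at E11.5. Since single draws differed, the average over all draws was added after seeing the data, and gave 6.56% and 3.28%, 1.41% and 0.287%, 3.34% at E12.5, and 0.406% and 0.178% for *Ntrk2*.

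Also chosen after seeing the data, leaving out neurons and glia with mesenchymal markers gave 12.4 for the E12.5 *Ntrk3* ratio of neurons to glia. Leaving out neurons with 5 or more *Ntrk3* UMIs gave 4.77 for that ratio, 0.279 for the E11.5 ratio of *Ngfr*, 1.85 for the E11.5 *Ntrk3* ratio of neurons without to with *Neurog1*, and stage ratios in neurons of 0.595 for *Ntrk3* and 1.99 for *Ngfr*. Of 88 ratios of genes in neurons with over without a receptor, leaving out those neurons kept 77 within their intervals, moved 10 and turned 1, *Gfra3* by *Ntrk3* at E12.5, from 2.18 to 0.457. *Cux2*, *Sorcs1* and *Neurog1* by *Ntrk3*, and *Ntrk3* by *Ngfr*, at E12.5 no longer differed 2-fold, nor did *Ntrk3* by *Sort1* at both stages. Setting neurons with *Ngfr* and no *Ntrk3* against those with neither kept 24 of 28 ratios within their intervals and moved 4. With 2 *Neurog1* UMIs the *Ngfr* ratio of glia with to without it was 0.0919 and 0.0747, and the E12.5 ratios of neurons without to with it were 6.54 for *Ngfr* and 2.03 for *Ntrk3*.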

Other observations

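The pathway lists were also read in the mesenchymal-like cells of E12.5. Against neurons, 17.5% of all genes were 2-fold or more higher and 15.5% lower. Of the Trk adaptors 1 of 16 was higher and 3 were lower, of the processing genes 2 of 6 were higher and 2 lower, of the p75NTR partners 3 of 9 were higher, and of the sortilin relatives 2 of 2. Among the higher genes, *Plat*, the gene of tissue plasminogen activator, was 26.7 times as high, *Tnfrsf19* 19.2 times, *Sorcs2* 11.9 times, the convertase gene *Pcsk5* 4.85 times, *Nradd*, a relative of p75NTR, 2.38 times, *Sorcs1* 2.28 times, the adaptor gene *Shc1* 2.14 times and *Irak1* 2.01 times. *Cpe* (0.272 times) and *Sh2b2* (0.482 times) were lower, and *Pcsk2*, *Shc2* and *Shc4* had 0 UMIs in these cells. Against glia, where 10.3% of all genes were higher and 13.1% lower, *Plat* was 5.75 times, *Cpe* 4.59 times, *Shc1* 4.41 times and *Nradd* 2.34 times as high, *Sorcs1* stood at 0.454 times and *Gab1* at 0.385 times, and *Shc4* had 0 UMIs.

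Between the stages, *Gfra3* (8.17 times) and *Th* (14.5 times) were higher in the neurons of E12.5, on very few E11.5 UMIs. The 159 E11.5 neurons without *Ntrk3* held 3 *Gfra3* and 1 *Th* UMIs. The 36 with 1 to 4 *Ntrk3* UMIs held 0 and 1, and the 8 with 5 or more held 1 and 1. *Neurog1* stood at 0.306 times and *Meis2* at 0.280 times the E11.5 level in the neurons of E12.5. Of the E11.5 *Meis2* UMIs, 56 lay in those 8 neurons, 52 in the 36 and 38 in the 159. Of the pathway genes in neurons, *Plat* was 2.09 times as high at E12.5, *Tnfrsf19* 0.472 times and *Sorcs1* 0.334 times. In glia, *Plat* (2.31 times), *Cpe* (2.08 times) and *Ripk2* (2.18 times), a kinase that p75NTR recruits, were higher at E12.5.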
